A study of Mus musculus with 2 samples.

Results

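Dermal papilla cells were sought in 2 single-cell RNA-seq libraries of newborn mouse back skin by a marker rule, which selected 179 of the 10436 barcodes that passed quality limits. The rule took barcodes with at least 1000 UMIs (unique molecular identifiers, each counting 1 captured RNA molecule), at least 500 genes and under 15% mitochondrial UMIs. It also required fewer than 100 keratin UMIs per 10000, detection of Vim, and detection of at least 3 of the 8 genes Corin, Rspo3, Rspo2, Wif1, Notum, Hhip, Ptprz1 and Alx4. The control library gave 104 such cells of 5178 and the induced library 75 of 5258. Those 8 genes, Vim and the keratins chose the cells, so their presence is not a result.

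Both libraries came from dorsal skin at postnatal day 3, in which epidermis and dermis were dissociated separately and recombined at 30 parts to 70. The control library is labelled with the genotype Wildtype and the treatment Dox, and the other library with the genotype miR-200b induced and the same Dox treatment. The doxycycline given to both groups is therefore shared, and the genotype label is the only stated difference. The labels used here give no promoter, driver line or targeted cell type for the induction, and no strain, sex or number of mice. With 1 library per group there was no replicate, no test was possible, and every interval below is an exact 95% interval that covers counting error only; the difference between the genotypes and the difference between the 2 preparations cannot be told apart. Mature microRNAs are not measured by this assay, so the level of miR-200b itself was not checked.

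The dermal papilla is the small mesenchymal condensate at the base of each hair follicle. It exchanges Wnt, BMP, FGF and Hedgehog signals with the hair matrix, controls the growth of the shaft, and makes agouti protein and endothelin 3, which act on the melanocytes of the hair bulb. During follicle growth its cells hardly divide, carry alkaline phosphatase, and hold a loose proteoglycan-rich matrix in place of the collagen bundles of the dermis. Papillae of the different hair types are known to differ, with Sox2 marking those of guard, awl and auchene follicles.

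The label held for fewer than all of the selected cells. When the low-keratin barcodes of both libraries were clustered without the 8 rule genes, Vim and the keratins, 1 cluster carried a papilla profile. Its leading genes were Inhba, Asip (listed under the symbol a), Col23a1, Prss12, Alpl, Enpp2, Ebf1, Rspo1, Edn3 and Bmp3, of which Alpl (alkaline phosphatase) and Enpp2 stood on the marker list. This dermal papilla-like cluster held 132 cells, 47 control and 85 induced, and the same 132 cells were returned at clustering resolutions of 0.5, 1.0 and 2.0. It contained 42 of the 104 selected control cells (40.4%, interval 30.9% to 50.5%) and 38 of the 75 selected induced cells (50.7%, interval 38.9% to 62.4%). The other 62 and 37 selected cells lay mainly in clusters led by fibroblast genes such as Thbs2, Col1a1, Mfap4, Chodl and Igf1. These outside cells were not spread alike in the 2 libraries. Of the control ones, 14, 20 and 15 lay in the clusters led by Thbs2, Mfap4 and Chodl and 8 in the one led by Igf1, whereas of the induced ones 4, 3 and 2 lay in the first 3 and 17 in the last. Differences between libraries within the outside cells, and over all selected cells, therefore also carry this difference in make-up. Below, "papilla-like cells" are the 42 and 38 selected cells inside the cluster, a division made after the data were seen, and "outside cells" are the remaining 62 and 37.

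Cluster membership depended on how many rule genes a cell showed. Just outside the threshold, 12 of 365 cells with 2 rule genes lay in the cluster. Just inside it, 31 of 120 cells with 3 rule genes did. With 4 rule genes the number was 18 of 27, and with 5 to 8 it was 31 of 32. Requiring 4 rule genes left 30 control and 29 induced cells, of which 26 and 23 were in the cluster.

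**Figure D1:**
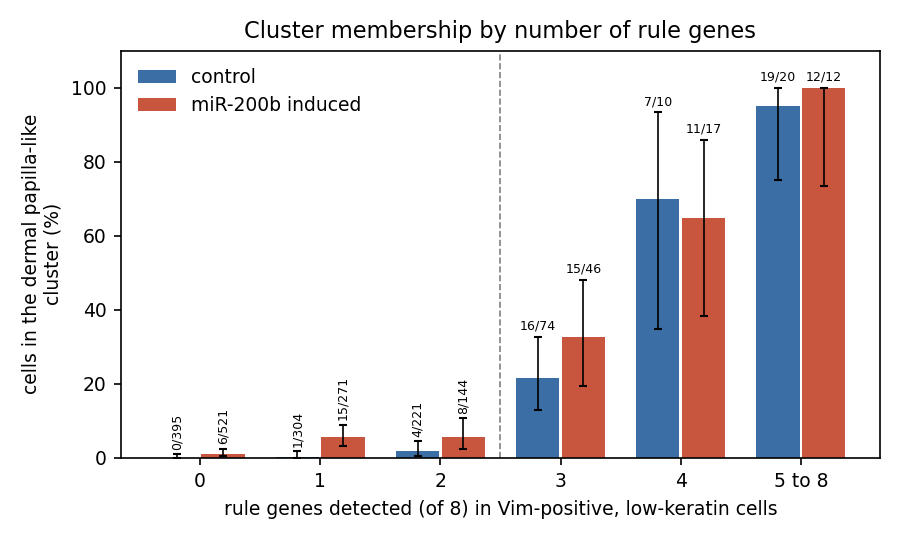
Percentage of Vim-positive, low-keratin cells in the dermal papilla-like cluster (y axis) by number of rule genes detected (x axis), for control (blue) and miR-200b induced (red). Bars are shares with exact 95% intervals, fractions give cells in the cluster over all cells, the dashed line marks the rule's threshold, and membership climbs from 16 of 74 and 15 of 46 at 3 genes to 19 of 20 and 12 of 12 at 5 to 8 genes.

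The rule genes themselves were unevenly spread over the selected cells. Corin, a transmembrane serine protease known as a papilla marker, was detected in 31 of 42 and 29 of 38 papilla-like cells, but in 1 of 62 and 4 of 37 outside cells. Alx4, a homeobox factor of mesenchyme, was detected in 35 of 42 and 13 of 38 papilla-like cells and in 5 of 62 and 5 of 37 outside cells. Wif1, a secreted Wnt inhibitor, went the other way and was detected in 26 of 42 and 31 of 38 papilla-like cells against 60 of 62 and 36 of 37 outside cells. Rspo3, an R-spondin that strengthens Wnt signalling, was found in most cells of both kinds, with 40 of 42 and 34 of 38 papilla-like cells against 53 of 62 and 26 of 37 outside cells. In keratin-high cells, which should lack these genes, a Corin UMI was present in 0.264% and 0.0783% of cells and a Wif1 UMI in 0.977% and 3.91%, at a median depth of 15859 and 21334 UMIs. The outside cells were thus selected mainly through Wif1, Rspo3 and Hhip, and the papilla-like cells through Corin as well.

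Depth differed between these sets. The selected cells had a median of 9581.5 UMIs in control and 4684 in induced, while the papilla-like cells had 6262.5 and 3550.5. Of the induced selected cells, 4 barcodes exceeded 40000 UMIs and supplied 40.6% of all their UMIs, 1 of them reaching 123349. All 4 lay outside the cluster, where they made up 50.3% of the UMIs, and the control cells held none so deep. Sums over all selected cells therefore weigh the outside cells and, in the induced library, these 4 barcodes. The libraries shared 10 barcode sequences among their kept barcodes.

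As a share of kept barcodes, the selected cells made up 2.01% of control (interval 1.64% to 2.43%) and 1.43% of induced (interval 1.12% to 1.78%), a log2 ratio of -0.49 with a counting interval of -0.94 to -0.05. The papilla-like cells alone made up 0.811% and 0.723%, a log2 ratio of -0.17 with an interval of -0.84 to 0.50. The whole cluster, selected or not, made up 0.908% of control and 1.62% of induced, a log2 ratio of 0.83 with an interval of 0.30 to 1.38. The sign of the difference in abundance thus changed with the definition of the cell. The cluster held 47 induced and 5 control cells that the rule did not select, and its induced cells had a median of 1811 UMIs against 6175 in control. A further 3 control and 14 induced barcodes had 3 rule genes but no Vim UMI or too many keratin UMIs. When rule genes were counted after each cell was thinned to 2000 UMIs, 29 control and 23 induced cells were selected, 2.11% (interval 1.42% to 3.02%) and 1.74% (interval 1.11% to 2.60%) of the low-keratin cells with that depth. Of these, 25 and 19 were in the cluster. The epidermis-to-dermis mixing ratio sets any such share, and its part in the result was not tested.

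Levels were compared as CPM, the UMIs of a gene per 1000000 UMIs summed over a set of cells. A gene counted as measured well enough where its mean was at least 50 CPM, and a difference as past 2-fold where the log2 ratio of CPM + 20 reached 1. The comparison population was 76 control and 50 induced reference fibroblasts. They showed none of the 8 rule genes and at least 3 of Dpt, Lum, Dcn, Mfap5, Pdgfra and Fbn1. These fibroblasts were not alike in the 2 libraries: adipocyte genes, mainly Lpl and Fabp4, summed to 346 CPM in control and 2224 CPM in induced. Differences between libraries within the fibroblasts may therefore also carry a difference in make-up, which was not tested. Because cells were clustered on these same genes, the levels of the papilla-like cells against fibroblasts describe the cells and test nothing.

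Over all selected cells, 30 of 3158 genes were at least 2-fold higher than in fibroblasts in both libraries (0.950%) and 38 were at least 2-fold lower (1.20%). In the papilla-like cells, 223 of 3379 genes were higher (6.60%) and 129 lower (3.82%), and the median log2 difference from fibroblasts over all genes was 0.24 in control and 0.10 in induced. In the outside cells 2 of 3071 genes were higher (0.0651%) and 32 lower (1.04%), so that by this count they lay close to the fibroblasts.

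With the rule genes left out, Prss12, a serine protease of the neurotrypsin type, stood furthest above fibroblasts in the papilla-like cells. It measured 707 CPM (613 to 811) in control and 437 CPM (332 to 564) in induced, against 3.67 and 3.05 CPM in fibroblasts, and 1.27 and 0 CPM in outside cells. Prlr, the prolactin receptor, measured 631 and 587 CPM in papilla-like cells against 11.0 and 12.2 CPM in fibroblasts. Serpine2, a secreted inhibitor of serine proteases, reached 1071 and 1995 CPM against 51.3 and 48.8 CPM. Cd24a, a surface glycoprotein, had 2596 and 2010.2 CPM against 189 and 85.3 CPM. None of these 4 genes was used by the rule, and each separated the papilla-like cells from fibroblasts in both libraries by more than 13-fold. Other genes of this kind were the alkaline phosphatase Alpl, the protease Adamts18, the secreted Scube1, the Rac activator Prex2 and the collagen-modifying enzyme Plod2. Alpl measured 548 and 301 CPM against 3.67 and 9.14 CPM in fibroblasts, and Scube1 249.5 and 166 CPM against 5.50 and 0 CPM. In outside cells Alpl measured 5.09 and 9.02 CPM, and Scube1 had no UMI in either library.

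Papilla markers that the rule did not use followed the same division. Of 20 further papilla markers, 15 were measured well enough, and 13 of them were at least 2-fold higher than in fibroblasts in both libraries: Sox2, Sox18, Lef1, Trps1, Hey1, Prdm1, Alpl, Prom1, Enpp2, Vcan, Fgf7, Fgf10 and Bmp4. None was lower, and over all genes the shares were 6.60% and 3.82%. In an overlapping list of 18 transcription factors, 14 were measured well enough, 10 were higher and 1, Twist2, was lower. Sox18, Prdm1 and Lef1 passed the 50 CPM limit only through the papilla-like cells. Sox18, a factor whose mutation affects hair and vessels, measured 402 CPM (332 to 482) and 286 CPM (202 to 393) against 9.17 and 3.05 CPM in fibroblasts. Prdm1, the repressor Blimp1, measured 371 and 422 CPM against 12.8 and 9.14 CPM. Lef1, which carries Wnt signals to target genes, measured 288 and 316 CPM against 14.7 and 18.3 CPM. Runx3, Tfap2c and Zic1 were also higher, with Tfap2c at 259.9 and 376 CPM against 7.33 and 9.14 CPM. Twist2, a factor of dermal fibroblasts, was lower at 34.7 and 22.6 CPM against 419.8 and 408 CPM, while Twist1 was less than 2-fold apart, at 970.3 and 949 CPM against 561 and 819.7 CPM.

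The matrix genes went mostly the opposite way. Of 28 matrix and adhesion genes measured well enough, 13 were at least 2-fold lower in papilla-like cells than in fibroblasts in both libraries and 6 were higher, beside 3.82% and 6.60% of all genes. Of the 13, Dcn, Lum, Dpt and Fbn1 were among the genes that chose the reference fibroblasts, so their direction was set by that choice. Col1a1, the chain of type I collagen, measured 274 CPM (217 to 341) in control and 286 CPM (202 to 393) in induced papilla-like cells against 19000.3 and 8300.3 CPM in fibroblasts. Outside cells carried 13171 and 2490 CPM of Col1a1 (5001 CPM in induced without the 4 deepest barcodes). Fibronectin (Fn1), Thbs2, Col12a1 and Cd34 had no UMI at all in the papilla-like cells of either library; against a floor of 3 UMIs per library, Fn1 was at least 83.2-fold lower than in control fibroblasts and at least 21.0-fold lower than in induced ones. Thbs2 was at least 64.2-fold and 25.8-fold lower. Lox, which cross-links collagen, had 0 and 2 UMIs in papilla-like cells against 467 and 518 CPM in fibroblasts, and the lipase Lpl had 1 and 0 UMIs. Coch, a secreted matrix protein, had 2 and 1 UMIs against 942 and 372 CPM. Against fibroblasts with a Dlk1 UMI the higher of its 2 log2 ratios was 0.46, so it was not lower in both libraries there. The 6 higher genes were the proteoglycan Vcan, Spon1, the laminin chain Lamc3, Itga8, the syndecan Sdc1 and the membrane collagen Col23a1. Versican (Vcan) measured 1591 and 919 CPM against 321 and 347 CPM.

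**Figure D2:**
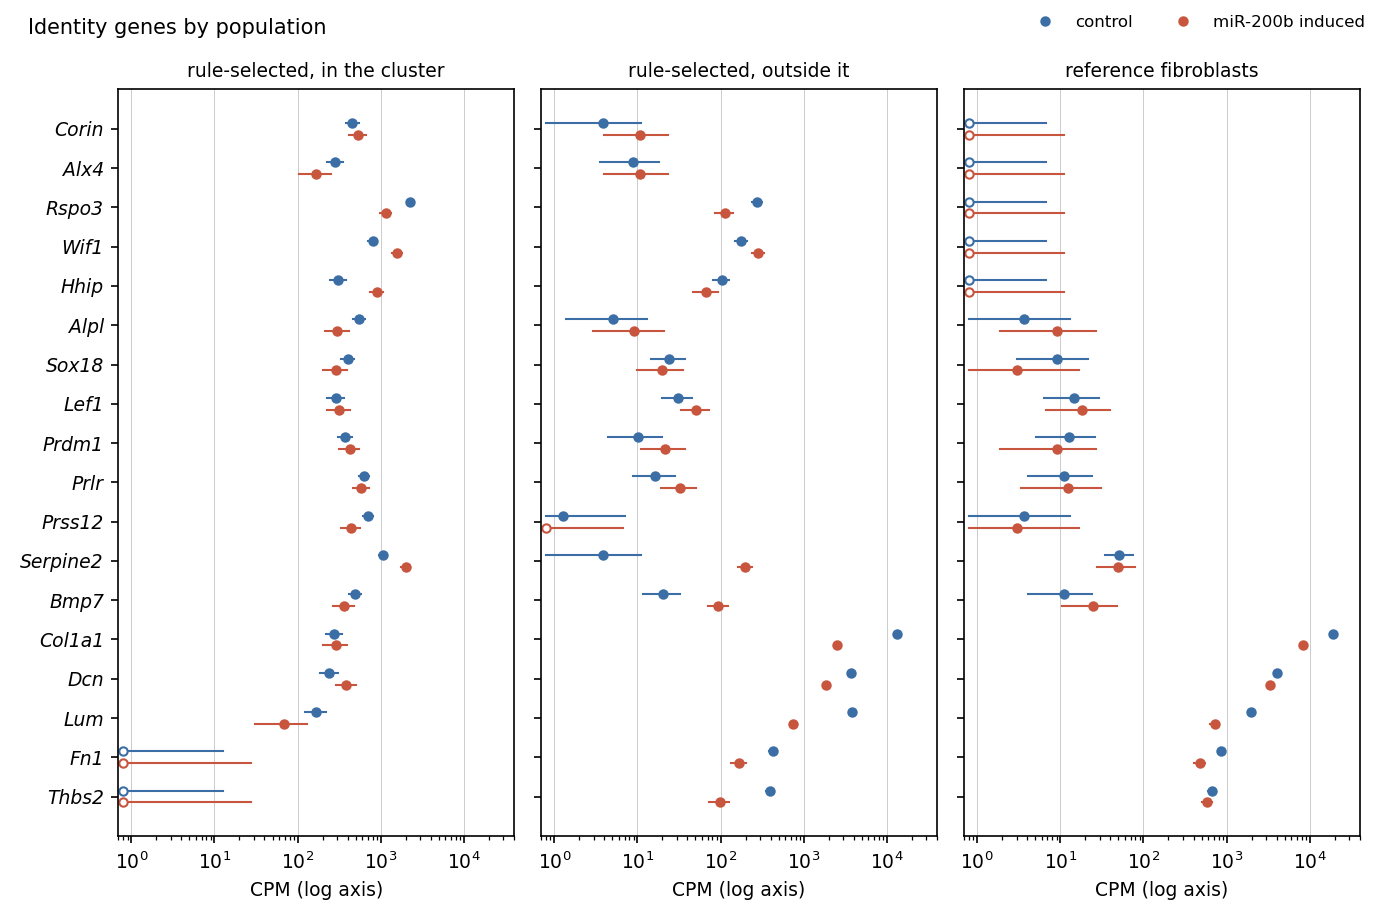
Levels of rule genes, other papilla genes and matrix genes (rows) in CPM on a log axis, in papilla-like cells, outside cells and reference fibroblasts, for control (blue) and miR-200b induced (red). Points are sums over cells with exact Poisson 95% intervals and open points mark genes with 0 UMIs, drawn at the left edge (rule genes are absent from fibroblasts by choice); Alpl, Prss12 and Prlr are high in the left panel only, while Col1a1 is above 2000 CPM in the other panels.

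Signalling genes of the papilla were measured by family. Among BMP and TGF-beta genes, 12 of 16 were at least 2-fold higher than in fibroblasts in both libraries and none was lower, beside 6.60% and 3.82% of all genes. The ligands Bmp3 (395 and 354 CPM), Bmp4 (599.5 and 730.3 CPM) and Bmp7 (496 and 361 CPM) were among them, with the activin chain Inhba at 1431 and 1212 CPM. The antagonists Nog, at 90.1 and 181 CPM, and Fst, at 558 and 316 CPM, were higher as well. The higher genes thus included both ligands and their antagonists.

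Among Wnt modulators and response genes, 6 of 14 were higher than in fibroblasts in both libraries, again beside 6.60% of all genes: Rspo1, Sfrp1, Wnt5a, Ndp, Nkd2 and Lgr4. Rspo1, a second R-spondin not used by the rule, measured 887 CPM (782 to 1003) and 1054 CPM (887 to 1244) against 101 and 109.7 CPM. Lgr4, an R-spondin receptor, measured 128 and 128 CPM against 27.5 and 30.5 CPM. Of 4 Hedgehog genes, 2 were higher and 1 lower than in fibroblasts in both libraries. The receptor Ptch1, itself a response gene of the pathway, measured 697 and 775 CPM against 62.3 and 107 CPM, and the effector Gli1 measured 104 and 128 CPM against 27.5 and 27.4 CPM. Gas1, a Hedgehog co-receptor, was the lower one, at 24.3 and 67.8 CPM against 497 and 1009 CPM. Of 5 Notch genes, Jag1, Hey1 and Hey2 were higher and none was lower. Of 15 FGF and IGF family genes, 6 were higher, the growth factors Fgf7 (579 and 294 CPM) and Fgf10 (128 and 151 CPM), the receptors Fgfr1 and Fgfr2 and the binding proteins Igfbp3 and Igfbp4. The 4 lower ones were Igf1, Igf2, Igfbp7 and H19. These shares stand beside 6.60% of all genes higher and 3.82% lower.

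Few papilla-like cells carried cell cycle transcripts. After thinning to 2000 UMIs, no papilla-like cell counted as cycling by its G2/M genes, 0 of 42 in control and 0 of 31 in induced, which allows shares of up to 8.41% and 11.2% by the exact interval. Without thinning the numbers were 1 of 42 and 2 of 38. Outside cells were cycling in 11 of 62 (17.7%) and 3 of 37 (8.11%) cases after thinning.

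Markers of other cell types were measured in the papilla-like cells. Summed over each list, immune genes came to 0 CPM in control and 45.2 CPM in induced, endothelial genes to 79.7 and 15.1 CPM, and melanocyte genes to 17.3 and 45.2 CPM. Dermal sheath and pericyte genes came to 65.8 and 166 CPM, with Tagln past 2-fold higher in induced. Skeletal muscle genes were at 0 in both. The 8 keratinocyte genes summed to 1563 and 2213 CPM, beside 1104 and 1402 CPM in reference fibroblasts. In the outside cells that sum was 934 CPM in control and 4127 CPM in induced, or 2069 CPM without the 4 deepest barcodes.

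Between the libraries, 124 of 3268 genes were at least 2-fold higher in the induced selected cells (3.79%) and 184 were at least 2-fold lower (5.63%). In papilla-like cells, which had 288556 and 132825 UMIs in all, 202 of 3596 genes were higher (5.62%) and 236 lower (6.56%). At these depths 50 CPM is only a few UMIs, so single genes are described with their UMIs and intervals. The median log2 ratio over all genes was -0.07 in selected cells and -0.04 in papilla-like cells.

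Asip, the agouti protein that papilla cells release to switch melanocytes to yellow pigment, showed the largest loss of UMIs among the named genes of the papilla-like cells. The control cells held 595 Asip UMIs, 2062 CPM (1899.6 to 2235), and the induced cells 25 UMIs, 188 CPM (122 to 278), which is 11.0-fold lower (interval 7.35 to 17.1). An Asip UMI was present in 34 of 42 control and 12 of 38 induced cells, and in 54.8% and 29.0% of cells thinned to 2000 UMIs. Per 10000 UMIs of a cell, the median was 4.17 in control (lowest 0, highest 185) and 0 in induced (highest 16.1). In keratin-high cells an Asip UMI was present in 0.660% and 0.574%. A single control cell held 240 of the Asip UMIs (40.3%), and without the highest cell of each library the levels were 1288 and 148 CPM. Fibroblasts showed 67.8 and 70.1 CPM of Asip, and outside cells 108 and 68.5 CPM, the latter 138 CPM without the 4 deepest barcodes. The control papilla-like cells stood above every other set compared, and the induced ones stood much closer to fibroblasts. The labels give no strain or coat-colour genotype, so a difference between the libraries at the agouti gene itself was not checked.

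Edn3, endothelin 3, which promotes the growth of melanocytes, differed less than Asip. It measured 606 CPM (519.9 to 703) in control and 414 CPM (312 to 539) in induced papilla-like cells, against 23.8 and 54.8 CPM in fibroblasts. A single induced cell held 36.4% of its UMIs, and without the highest cell of each library the levels were 563 and 278 CPM (log2 -0.97). Kitl, the ligand of the melanocyte receptor Kit, was sparse at 24.3 and 37.6 CPM. Of the 2 pigment ligands measured well enough between libraries, only Asip was past 2-fold.

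The growth factor binding proteins moved in different directions. Igfbp5 had 70 UMIs in 9 control papilla-like cells (243 CPM, 189 to 306) and none in the induced ones, at least 10.7-fold lower against a floor of 3 UMIs. In fibroblasts it measured 324 and 97.5 CPM. Igfbp4 measured 1601 and 617 CPM, 2.59-fold lower (interval 2.05 to 3.32). Igfbp3 went the other way, with 319 CPM (257 to 391) in control and 1875 CPM (1649 to 2123) in induced, 5.88-fold higher (interval 4.61 to 7.55), and it was 18.1-fold higher in induced fibroblasts (34.8 and 631 CPM). Igf1r, the receptor for these growth factors, measured 97.0 and 339 CPM. Of 13 FGF and IGF family genes measured, 3 were higher (Igf1r, Igfbp3, Spry1) and 2 lower (Igfbp4, Igfbp5) in the induced cells, beside 5.62% and 6.56% of all genes, with a median log2 ratio of 0.20.

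Crabp1, a retinoic acid binding protein known from the papilla, measured 863 CPM (759 to 977) in control and 90.3 CPM (46.7 to 158) in induced papilla-like cells. It was detected in 32 of 42 and 6 of 38 of them, with a median of 3.20 per 10000 UMIs in control cells and 0 in induced cells. It was lower in fibroblasts too, at 412 and 48.8 CPM, and in outside cells, at 80.1 and 1.80 CPM. Crabp1 was thus lower in the induced library in all 3 sets of mesenchymal cells, though its mean in outside cells was below the 50 CPM limit. The part of differences in make-up was not tested. Sostdc1, a secreted antagonist of BMP and Wnt signals, measured 679 and 90.3 CPM in papilla-like cells, from 12 of 42 and 7 of 38 cells, and a single control cell held 33.2% of its UMIs. Fdps, an enzyme of cholesterol synthesis, had 88 UMIs in 32 control cells and 3 in the induced ones, or 305 and 22.6 CPM. Map1b, F5, Pdlim3, Stmn2 and Col14a1 completed the 10 lowest, each with 36 to 55 control UMIs and at most 2 induced ones.

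The genes highest in induced papilla-like cells included heat shock and stress genes. Hspb1, a small heat shock protein, measured 253 CPM (198 to 318) in control and 2161 CPM (1918 to 2426) in induced, 8.54-fold higher (interval 6.58 to 11.2). Hspa1b, an inducible Hsp70, measured 894 and 4645 CPM. Dusp1, a phosphatase of stress kinases, measured 232 and 1747 CPM, though 1 induced cell held 38.8% of its UMIs. Fibroblasts differed in the same direction, with Hspb1 at 224 and 612 CPM, Hspa1b at 830.5 and 1917 CPM and Dusp1 at 150.3 and 445 CPM. Keratin-high cells did not share this for all 3, with Hspb1 at 1113 and 1836 CPM, Hspa1b at 1224 and 991 CPM and Dusp1 at 324 and 276 CPM. Of 12 immediate early and heat shock genes, 4 were past 2-fold higher in induced papilla-like cells (Jun, Socs3, Hspa1a and Hspa1b), 11 were in fibroblasts and 12 in outside cells, beside 5.62%, 4.20% and 5.26% of all genes in these sets. Their summed level in papilla-like cells was 12417 CPM in control and 28910.2 CPM in induced, and in fibroblasts 4272 and 11247 CPM. Their median log2 ratio was 0.80 in papilla-like cells, 1.49 in fibroblasts and -0.48 in keratin-high cells. Such genes respond to tissue dissociation, and its part in these differences was not tested.

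The rest of the 10 highest were Aspn, Foxd1, Slc25a27, Csrp2, Igfbp3, Ndrg2 and Emp1. Csrp2 and Ndrg2 measured 55.4 and 422 CPM and 27.7 and 226 CPM. Foxd1, a forkhead factor on the list of papilla markers, had 3 UMIs in 3 control cells and 24 UMIs in 13 induced cells, or 10.4 and 181 CPM, a ratio of 17.4 (interval 5.28 to 90.2). Fibroblasts had 112 and 195 CPM of Foxd1. Slc25a27, a mitochondrial carrier, was found in 9 of 42 and 22 of 38 cells at 38.1 and 346 CPM. Aspn, asporin, had no control UMI and 19 induced UMIs in 5 cells, and Emp1 had 11 of its 15 induced UMIs in 1 cell.

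**Figure D3:**
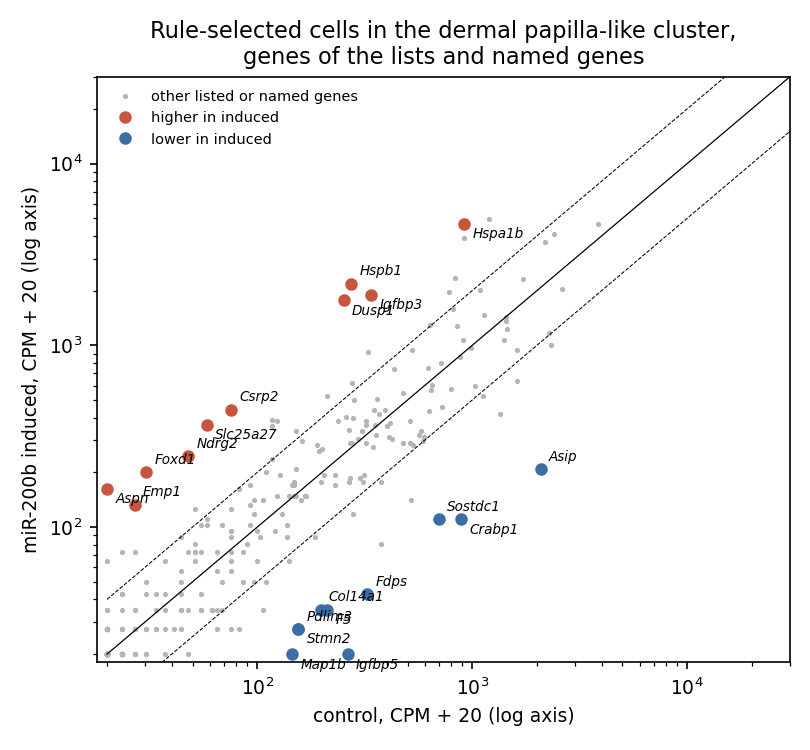
Level of each listed or named gene in papilla-like cells of the induced library (y axis) against control (x axis), as CPM + 20 on log axes. The solid line marks equality and dashed lines a 2-fold difference; Asip, Crabp1 and Sostdc1 are the highest-expressed of the 10 lowest genes (blue), and Hspa1b, Hspb1, Igfbp3 and Dusp1 of the 10 highest (red).

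Most papilla identity genes were within 2-fold between the libraries, as were most genes of all kinds. Of 17 other papilla markers measured in papilla-like cells, 2 were past 2-fold higher (Sox2 and Foxd1), 1 was lower (Crabp1), beside 5.62% and 6.56% of all genes, and the median log2 ratio was 0.13 against -0.04 for all genes. Trps1, a GATA-type repressor needed for hair, measured 1414 and 1415 CPM. Prdm1, Lef1 and Prlr had overlapping intervals as well. Other markers were less level without passing 2-fold. Fgf7 (log2 -0.93), Alpl (-0.82) and Vcan (-0.78) were lower in induced cells, and Enpp2 (0.58) and Bmp4 (0.28) higher. The rule genes are described without reading from them: Corin measured 457 and 527 CPM, Rspo3 2246 and 1144 CPM, Wif1 797 and 1558 CPM, Hhip 308 and 903 CPM and Alx4 281 and 166 CPM.

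Signalling genes were counted by pathway, beside 5.62% of all genes past 2-fold higher and 6.56% lower. Of 17 BMP and TGF-beta genes, 3 were past 2-fold higher in the induced papilla-like cells and none was lower, with a median log2 ratio of 0.34. The 3 were Id1 (191 and 504 CPM), Id3 (762 and 1957 CPM), which are direct targets of BMP signals, and the pseudoreceptor Bambi (97.0 and 369 CPM). Id3 was 2.57-fold higher (interval 2.14 to 3.09). Id1 and Id3 were also past 2-fold higher in fibroblasts, where Id3 measured 62.3 and 265 CPM. The ligands Bmp3, Bmp4 and Bmp7 were not past 2-fold.

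Of 15 Wnt genes, Ndp and Apcdd1 were past 2-fold higher and Sfrp2, Frzb and Sostdc1 lower, with a median of 0.19. A single control cell held 57.3% of the Sfrp2 UMIs, and without the highest cell of each library Sfrp2 (log2 -0.37) and Ndp (log2 0.94) were not past 2-fold. Apcdd1, a Wnt-induced inhibitor, measured 617 and 1272 CPM. The Hedgehog genes Ptch1 and Gli1 were not past 2-fold. None of 6 Notch genes was past 2-fold in either direction. Of 25 matrix genes, 5 were lower (Bgn, Lum, Col3a1, Col6a1 and Col6a3) and none higher, beside 6.56% and 5.62% of all genes, with a median of -0.44. Col3a1 measured 2298 and 979 CPM, and Lum 166 and 67.8 CPM.

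Over all selected cells the leading differences came largely from the outside cells. Cxcl14, a chemokine, measured 27.9 CPM in control and 980.5 CPM in induced selected cells, a log2 ratio of 4.38. In papilla-like cells it measured 69.3 and 60.2 CPM, in outside cells 12.7 and 1201 CPM, and in fibroblasts 11.0 and 137 CPM. Without the 4 deepest barcodes Cxcl14 over all induced selected cells measured 171 CPM and Gm13648 78.4 CPM, and Bcam (log2 0.51) and Spint2 (log2 0.95) were not past 2-fold. Bcam, Ptn, Mt1 and Spint2 were likewise among the 10 highest over all selected cells but not past 2-fold higher in papilla-like cells, where Ptn measured 45.1 and 7.53 CPM. The noncoding RNA Gm13648 measured 0.93 and 351 CPM over all selected cells and 1.27 and 431 CPM in outside cells, but had 0 and 2 UMIs in papilla-like cells. It measured 0 and 54.8 CPM in fibroblasts, and 2.34 and 529 CPM in keratin-high cells. Of the 8 keratinocyte genes, 5 were past 2-fold higher in induced outside cells (Krt5, Krt14, Krt17, Epcam and Perp), beside 5.26% of all genes there. The same 5 were higher over all selected cells, and without the 4 deepest barcodes 3 of them were (Krt14, Krt17 and Epcam) while Krt15 was lower. The part of these transcripts in the other differences was not tested.

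On the lower side, Col1a1 (9708 and 2064 CPM), Lum (2857 and 615 CPM), Cthrc1, H19, Fibin, Mdk and Col6a3 joined Crabp1, Igfbp5 and Asip over all selected cells. Col1a1 had a log2 ratio of -2.22 over all selected cells, -2.39 in outside cells, 0.06 in papilla-like cells and -1.19 in fibroblasts. Induced outside cells measured 5001 CPM of Col1a1 without the 4 deepest barcodes, against 13171 CPM in control. Matrix genes past 2-fold lower numbered 13 of 24 over all selected cells, beside 5.63% of all genes. Without the 4 deepest barcodes they numbered 5 of 27, beside 3.08% of all genes (Lum, Col1a1, Col1a2, Col3a1 and Col6a3). Without those barcodes the induced levels of Col1a1 and Lum were 3467 and 1026 CPM. Mdk, the growth factor midkine, was lower in every set, at 499 and 120.5 CPM in papilla-like cells and 176 and 42.7 CPM in fibroblasts. Asip over all selected cells measured 633 and 91.6 CPM, a log2 ratio of -2.55, and -1.91 without the 4 deepest barcodes.

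**Figure D4:**
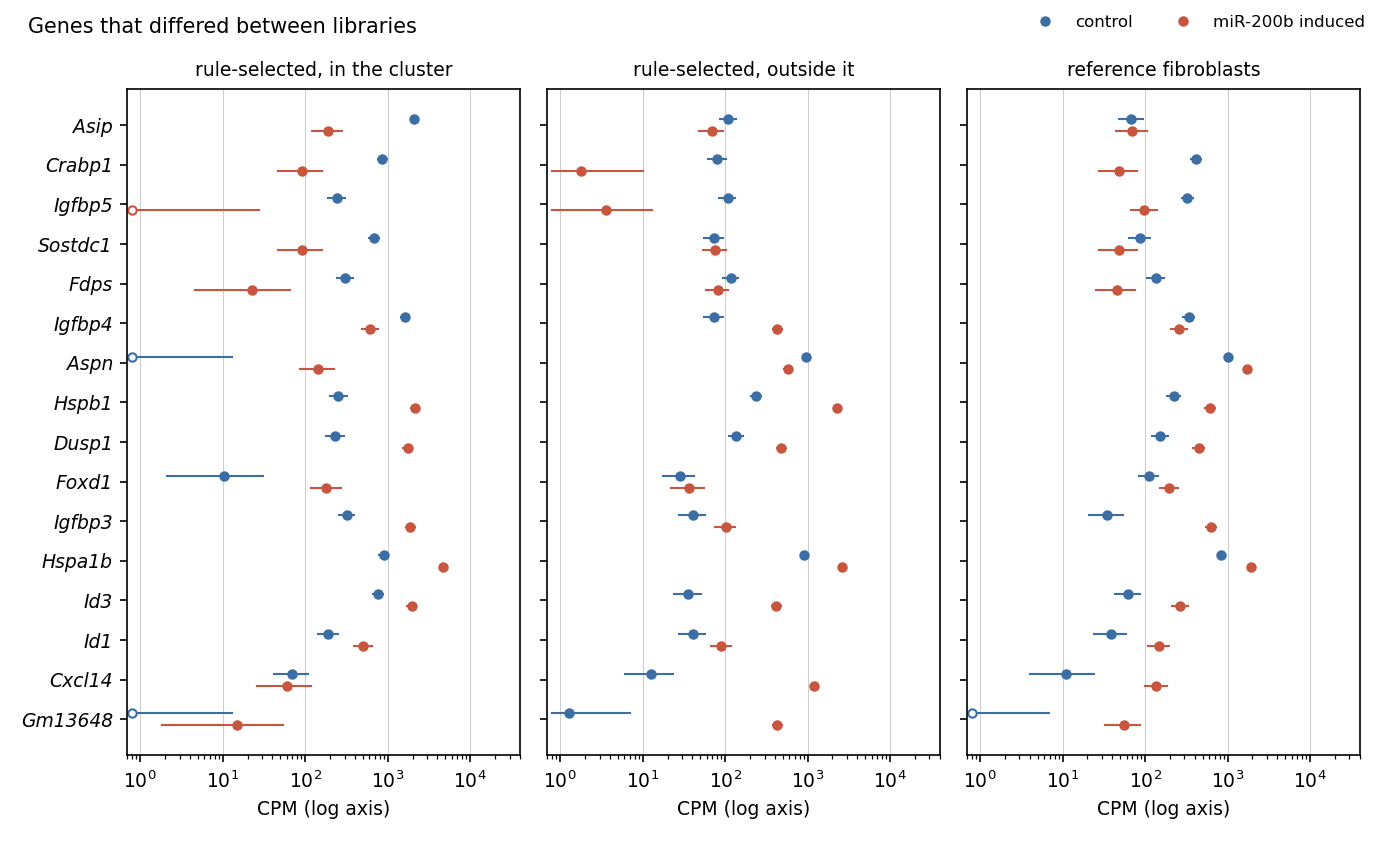
Levels in CPM on a log axis of genes that differed between the libraries, in papilla-like cells, outside cells and reference fibroblasts, for control (blue) and miR-200b induced (red). Points are sums over cells with exact Poisson 95% intervals and open points mark 0 UMIs; Asip differs mainly in the left panel, Crabp1 in all 3, and Cxcl14 and Gm13648 in the middle and right panels.

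The papilla-like cells were themselves mixed for Sox2. A Sox2 UMI was present in 7 of 42 control and 13 of 38 induced cells (11.9% and 25.8% after thinning), beside 0.238% and 0.339% of keratin-high cells. The genes compared across this division were picked with earlier results known, and cells with low depth can miss Sox2. Serpine2 was higher in cells with Sox2 in both libraries, at 2878 CPM (2449.7 to 3361) against 639.6 CPM (541 to 751) in control, and 3882 CPM (3369 to 4451) against 749.9 CPM (572 to 965) in induced. A single control cell with Sox2 held 49.4% of that class's Serpine2 UMIs, and without the highest cells the levels were 1665 against 535 CPM and 3691 against 627 CPM. Id3 measured 2159 against 429 CPM and 3598 against 875 CPM. Sostdc1 in control was carried mainly by the Sox2 cells, at 2950.4 against 137 CPM (2156 against 76.4 CPM without the highest cells), and in induced it measured 133 and 62.5 CPM.

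The difference between libraries was not the same in both kinds of cell for every gene. Asip was lower in induced cells of both, with 4156 and 133 CPM in cells with Sox2 and 1562 and 225 CPM in cells without. Single control cells held 123 of the 231 Asip UMIs in the first class and 240 of the 364 in the second. Without the highest cell of each class and library, Asip measured 2357 and 61.6 CPM in cells with Sox2 and 564 and 158 CPM in cells without. Crabp1 was also lower in both. Igfbp3 measured 702 CPM (499 to 959) and 473 CPM (306 to 699) in cells with Sox2, but 227 CPM (170.4 to 298) and 2799 CPM (2445 to 3191) in cells without. Without the highest cells these became 430.4 and 204 CPM, and 193 and 2347 CPM. Edn3 measured 644 and 175 CPM in cells without Sox2. In cells with Sox2 it measured 449.8 and 776 CPM, but 1 induced cell held 20 of 41 UMIs and 1 control cell 13 of 25, so no direction was read there. These levels rest on 7 to 35 cells each.

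The microRNA named in the label acts by pairing its seed, bases 2 to 8, with matching sites in the 3' untranslated regions of messenger RNAs, which lowers their level or translation. The mature sequences are given to show which family members share that seed, with the seed in capitals, from RefSeq on build GRCm38.p6. The first 3 share a seed, and the last 2 share another that differs by a single base.
miR-200b-3p (chr4:156055685-156055706, minus strand): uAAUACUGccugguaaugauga
miR-200c-3p (chr6:124718324-124718346, minus strand): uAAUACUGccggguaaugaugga
miR-429-3p (chr4:156053916-156053937, minus strand): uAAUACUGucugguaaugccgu
miR-200a-3p (chr4:156054911-156054932, minus strand): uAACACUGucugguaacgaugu
miR-141-3p (chr6:124717917-124717938, minus strand): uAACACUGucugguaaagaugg

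The seed match, CAGTATT on the transcribed strand, occurred in the longest annotated 3' untranslated region of 2782 of 20775 genes (13.4%). Among the rule genes it occurred once each in Corin, Wif1 and Ptprz1. Among other papilla genes it occurred in Sox2, Trps1, Prdm1, Fgf10, Nrg3 and Runx1, and Zeb2, a known target, held 5 matches. The sites below are those of 2 rule genes, 3 further papilla genes, Dusp1 and Zeb2, each 24 bases of build GRCm38 with the match in capitals; a match is a description and not a shown site of action.
Corin (chr5:72300266-72300289, minus strand): gcaaccaaactgcctCAGTATTgc
Wif1 (chr10:121100285-121100308, plus strand): gcagcgtttaagctaCAGTATTtc
Sox2 (chr3:34651815-34651838, plus strand): caagcaacttttgtaCAGTATTta
Trps1 (chr15:50660288-50660311, minus strand): actatcatatgacagCAGTATTag
Prdm1 (chr10:44438447-44438470, minus strand): aaactcagcttttctCAGTATTtg
Dusp1 (chr17:26505927-26505950, minus strand): gcttgacacacccacCAGTATTaa
Zeb2 (chr2:44988172-44988195, minus strand): cgcactaccatacatCAGTATTtt

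None of the matched genes shown that the rule did not use (Sox2, Trps1, Prdm1, Dusp1 and Zeb2) was past 2-fold lower in the induced papilla-like cells. Corin and Wif1 helped select the cells in both libraries, so their levels are no measure of this. Zeb2, an EMT transcription factor, had 409 and 179 UMIs, 1417 CPM (1283 to 1562) and 1348 CPM (1157 to 1560.2), 1.05-fold lower in induced (interval 0.880 to 1.26). In outside cells Zeb2 measured 768 and 420.1 CPM, but the induced level was 846 CPM without the 4 deepest barcodes. Trps1 and Prdm1 had the levels given above, and Sox2 and Dusp1 were higher, with Sox2 at 132 and 316 CPM. Asip, Crabp1, Igfbp5, Fdps, Map1b and Sostdc1, the 6 lowest by ratio, held no match. Among all measured genes 678 of 3550 held one, so 6 genes are too few to read from. Of 7 established targets measured well enough none was past 2-fold in papilla-like cells, with a median log2 ratio of -0.07. Over all genes 5.62% were higher and 6.56% lower, so 7 genes are too few to read from this count. Sec23a and Fn1 were past 2-fold lower over all selected cells, and none of the targets was without the 4 deepest barcodes, where Sec23a measured 80.9 and 36.7 CPM.

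Over all genes with a match, the median log2 ratio in papilla-like cells was 0.09 for 678 genes, beside -0.07 for genes without a match. Of the matched genes 3.24% were past 2-fold lower, beside 6.59% of all 3550 genes with an annotated region. In outside cells the medians were -0.20 and -0.04, in fibroblasts 0.06 and 0.02, and in keratin-high cells -0.27 and -0.10. In keratin-high cells 7.84% of matched genes were past 2-fold lower, beside 3.29% of all. The papilla-like cells thus showed no lower median for matched genes at this depth, while the keratin-high cells did.

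**Figure D5:**
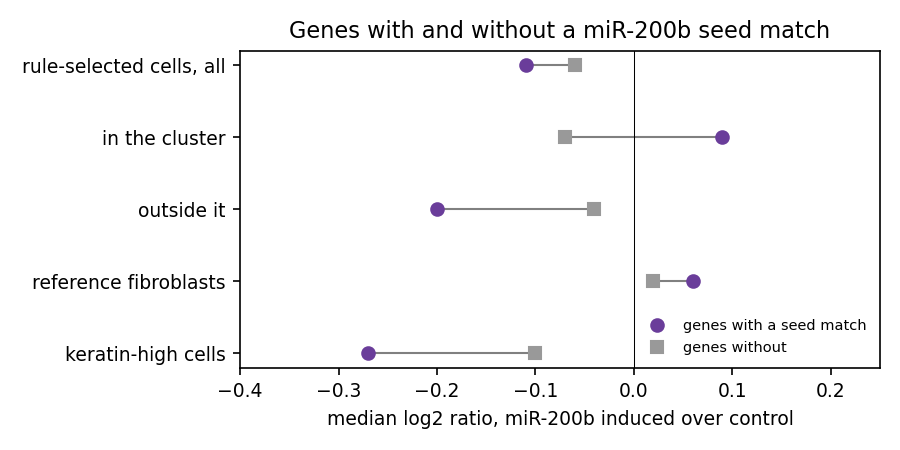
Median log2 ratio of miR-200b induced over control (x axis) for genes with a seed match (purple circles) and without (grey squares) in each set of cells (rows). The circle lies left of the square in keratin-high cells (-0.27 and -0.10) and right of it in papilla-like cells (0.09 and -0.07).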

How the data were processed

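The deposited files are 10x matrices of raw UMI counts per gene and barcode, made by the authors with Cell Ranger 6.0.0 on mm10 per the submitters' processing notes; the chemistry was 3' v3.1, per the labels' protocols. Deposited barcodes numbered 9072 and 9114, and limits on UMIs, genes and mitochondrial share kept 5178 and 5258, with medians of 14748 and 18019.5 UMIs. UMIs were summed over cells and scaled to CPM. Ratios used a pseudocount of 20 CPM. Poisson, Clopper-Pearson and conditional binomial intervals were exact at 95%. Non-keratin barcodes were clustered with scanpy 1.11.5 (2000 variable genes, 30 components, 15 neighbours, Leiden resolution 1.0). Scrublet's default threshold marked 3 and 1 barcodes and was not usable, so no doublets were removed, and an alternative dropped the 7% highest scores. 3' untranslated regions came from GENCODE vM21. The ratio and thinning steps were tested on simulated data. Members, lists and rules were chosen with earlier results of these data known. Named were the rule genes, list genes by counts with examples, the 10 highest and 10 lowest ratios between libraries, and the 15 highest and 10 lowest against fibroblasts in both libraries, leaving out rule genes, Vim, keratins, mitochondrial, ribosomal, haemoglobin and sex-linked genes; genes past these were named after their values were seen. The matrices list Asip as "a" and Qki as "Qk". Some listed genes are not reported here.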

Additional observations from a re-analysis of the deposited data

Results flagged for a closer look

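Igfbp4, which binds insulin-like growth factors, differed in opposite directions in the selected cells inside and outside the dermal papilla-like cluster. Its log2 ratio of induced over control was -1.35 in papilla-like cells (462 and 82 UMIs) and 2.29 in outside cells (57 and 239 UMIs). Stmn2, a stathmin of the cytoskeleton, had a log2 ratio of -2.49 in papilla-like cells (39 and 1 UMIs, with 56.4% of the control UMIs in 1 cell) and 1.89 in outside cells (20 and 82 UMIs). The outside values include the 4 deepest barcodes. Without those barcodes Stmn2 in induced outside cells kept its 82 UMIs, and its level rose from 148 to 298 CPM. Igfbp4 over all selected cells then measured 483 and 762 CPM. Acta2, Tagln, Stmn2, Col11a1 and Igfbp4 led another cluster, made of 1 control and 23 induced cells, which held 3 of the induced outside cells. The difference between these sets was not tested, since each is a sum over the cells of 1 library.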

How the results depend on the processing

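The lower share of selected cells in the induced library kept its sign under the other cell filters, doublet removal and stricter rules, with log2 ratios from -0.61 to -0.07, but its counting interval included 0 with 4 rule genes (-0.86 to 0.71), at 2000 UMIs (-1.12 to 0.58) and after doublet removal (-0.91 to 0.06), and was 0.83 when every cell of the dermal papilla-like cluster was counted. The other settings named here as "cluster only", "whole cluster" and "without the 4 deepest barcodes", and the values without the highest cell, were chosen after the data were seen. The share of selected cells in the cluster went from 44.7% to 83.1% with 4 rule genes required and 84.6% with rule genes counted at 2000 UMIs. Genes higher in induced selected cells (124) became 241 at 2000 UMIs, 202 for the cluster only, 239 for the whole cluster, and 227 or 51 with a minimum of 20 or 150 CPM. Genes lower in induced (184) became 282 at 2000 UMIs, 282 for the whole cluster, 101 without the 4 deepest barcodes, 105 with a pseudocount of 50 CPM and 97 with a minimum of 150 CPM. Genes higher than in fibroblasts (30) became 138 with 4 rule genes, 167 at 2000 UMIs, 223 for the cluster only, 218 for the whole cluster, 16 with a pseudocount of 50 CPM, 77 with cells weighted equally, 8 with a minimum of 150 CPM and 113 against fibroblasts with Dlk1. Genes lower than in fibroblasts (38) became 88, 86, 129 and 129 under the first 4 of these settings, 24 with a pseudocount of 50 CPM, 17 with a minimum of 150 CPM and 84 against fibroblasts with Dlk1. In papilla-like cells, genes higher in induced (202) became 319 or 100 with a pseudocount of 5 or 50 CPM and 391 or 70 with a minimum of 20 or 150 CPM. Genes lower in induced (236) became 380 at 2000 UMIs, 114 with a pseudocount of 50 CPM, and 420 or 88 with a minimum of 20 or 150 CPM. With a minimum of 150 CPM, 92 and 65 genes were higher and lower than in fibroblasts. The median of genes with a seed match, relative to all genes, was -0.04 over all selected cells. It was 0.08 with 4 rule genes, 0.09 at 2000 UMIs, 0.13 for the cluster only, 0.21 for the whole cluster, 0.11 without the 4 deepest barcodes, 0.10 with cells weighted equally, -0.23 with a minimum of 150 CPM and -0.17 for the match followed by A. The sign of that median over all selected cells thus depended on which cells carried the weight. For single genes over all selected cells, log2 ratios of induced over control changed sign at 2000 UMIs for Cxcl14 (-1.01), Ptn (-0.96), Mt1 (-0.29) and Spint2 (-0.78). For the cluster only they changed sign for Cxcl14 (-0.15), Ptn (-1.24), Mt1 (-0.18), Bcam (-0.43) and Col1a1 (0.06), and for the whole cluster for Ptn (-1.07). Against fibroblasts with Dlk1, the higher of the 2 libraries' log2 ratios became positive for Coch (0.20, and 0.46 in papilla-like cells), Igf1 (0.97) and Pi16 (0.10). These genes were then not lower in both libraries. Of 1310 recomputed values of named genes, 947 stayed within their limit, 349 moved past it and 14 changed sign. The limit was the counting interval for ratios between libraries, and 0.5 log2 for differences from fibroblasts. The cause of these shifts was not tested. No paired analysis was possible because each group has 1 library. Leaving out a replicate was not possible for the same reason. Depth limits the papilla-like cells most: in the induced ones 3 UMIs correspond to 22.6 CPM.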

Other observations

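Papilla-like cells carried more immediate early transcripts than fibroblasts in both libraries for 7 of 12 genes, Fos, Fosb, Junb, Egr1, Ier2, Socs3 and Zfp36, beside 6.60% of all genes. Fos measured 2391 CPM in control and 4096 CPM in induced papilla-like cells, against 704 and 1594 CPM in fibroblasts. F5, coagulation factor V, was confined in control to the papilla-like cells among the mesenchymal sets compared, with 55 UMIs in 10 of 42 papilla-like cells and 0 UMIs in both outside cells and reference fibroblasts. In the induced library it had 2 UMIs in papilla-like cells, 1 in outside cells and 0 in fibroblasts. Cthrc1, a secreted collagen regulator, was instead carried by the outside cells, at 261 and 30.7 CPM (61.7 CPM in induced without the 4 deepest barcodes), with 1 and 0 UMIs in papilla-like cells. The imprinted RNA H19 had 111 and 5 UMIs in outside cells, and 1 and 0 UMIs in papilla-like cells. The cluster with Cthrc1 among its leading genes held 15 control and 2 induced outside cells.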
